A study of Mus musculus with 6 samples.

Results

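A set of 10 transcription factor genes that maintain or impose a mesenchymal state were followed in cancer-associated fibroblasts (CAFs) of mouse mammary tumors. The 10 genes (Twist1, Twist2, Prrx1, Prrx2, Tcf21, Snai1, Snai2, Zeb1, Zeb2 and Runx1) were found by their symbols among the 27179 genes of the count table. All 10 passed the filter on low counts, and 14855 genes were tested in all. Bulk RNA sequencing compared CAFs without and with the surface protein CD34, and the question here is whether these factors differed between the CAF fractions. The tumors came from raGFP-Wnt1 females, in which the MMTV promoter drives a Wnt1 transgene in mammary epithelium (MMTV-Wnt1 line, FVB/NJ) and 1 Pdgfra allele carries an H2B-GFP reporter (C57BL/6). Both fractions therefore share the transgene, the reporter and the mixed background, the labels name no treatment of either, and the ages of the mice were not given in the sources used here. GFP+ cells of 3 tumors were sorted into CD34 negative and CD34 positive CAFs, which gave 3 libraries per group. The reporter limits the cells to those with Pdgfra promoter activity. Since the labels do not say whether the 3 tumors came from separate mice, p-values measure the spread between these tumors.

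TWIST, SNAIL and ZEB factors are the classical drivers of epithelial-mesenchymal transition: SNAIL and ZEB proteins bind E-boxes and repress epithelial genes such as E-cadherin, and TWIST proteins are basic helix-loop-helix (bHLH) factors that act as dimers with E proteins. PRRX factors are homeodomain proteins of embryonic mesenchyme, TCF21 is a bHLH factor of visceral and cardiac fibroblast lineages, and RUNX1 binds DNA with its partner CBFB. Fibroblasts are mesenchymal cells that normally express several of these genes without passing through such a transition.

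Libraries are named by their CD34 status and tumor number. Their totals ranged from 16238100 to 86609300 counts, and a limit set by a count of 0 covers counting error only. Negative library 3 held counts for 14314 genes, the fewest of the 6, and the others for 16253 to 19220. Cd34, the sort gene, was lower in the CD34 negative libraries by a log2 fold change of -3.63 ± 0.44 (SE; limma-voom adjusted p = 0.0414). The 10 fibroblast markers summed to CPM values (counts relative to the library total) of 68505 to 94702 in CD34 negative libraries, against 77984 to 94944 in CD34 positive libraries, and none was at 0. Most of that sum came from the collagen genes Col1a1, Col1a2 and Col3a1, and single fibroblast markers moved in both directions, as given below. Endothelial markers summed to 10.4 to 32.5 and 55.3 to 122 CPM, with Cdh5, Emcn, Tie1 and Cldn5 at 0 in at least 1 library. The gap between these sums came mainly from Tek, whose group means were 8.46 and 76.7 CPM in the same order. By their means, Pecam1 and Kdr were also lower in the CD34 negative fraction, whereas Cdh5, Emcn, Tie1 and Cldn5 were higher there. Immune markers summed to 14.1 to 17.3 and 6.81 to 20.1 CPM, with Ptprc and Cd68 at 0 in at least 1 library.

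Sequences beside a transcription start of 4 of the genes are shown, upstream of that start for 3 and just downstream for Runx1. The start is the one used for the promoter window. For Prrx1 and Prrx2 it lies inside the span of the gene given below, so their bases shown are within the gene. These genes were chosen because they passed the test in at least 1 fit (that with the tumor as a block). The motifs their own families bind can also be looked up in them. They are RefSeq promoter sequences of build GRCm38.p6, read 5′ to 3′ on the strand of the gene. The capitals in Snai1 (chr2:167537945-167538194, plus strand) mark the E-box CAGGTG, here as its reverse complement CACCTG, which SNAIL and ZEB proteins are known to bind. The capitals in Prrx1 (chr1:163313651-163313900, minus strand) mark the homeodomain motif TAATTA. Prrx2 (chr2:30845117-30845366, plus strand) held none of the motifs searched and is shown beside its paralog. Of Runx1, 30 bases just inside the start of 1 of its 2 promoter windows are shown (chr16:92826025-92826054, minus strand), with the RUNX motif TGTGGT as its reverse complement ACCACA in capitals.
Snai1: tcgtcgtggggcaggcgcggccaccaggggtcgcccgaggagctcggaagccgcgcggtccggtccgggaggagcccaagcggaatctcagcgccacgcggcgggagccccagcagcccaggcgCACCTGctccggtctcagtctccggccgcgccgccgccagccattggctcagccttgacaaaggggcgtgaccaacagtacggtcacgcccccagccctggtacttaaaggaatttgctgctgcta
Prrx1: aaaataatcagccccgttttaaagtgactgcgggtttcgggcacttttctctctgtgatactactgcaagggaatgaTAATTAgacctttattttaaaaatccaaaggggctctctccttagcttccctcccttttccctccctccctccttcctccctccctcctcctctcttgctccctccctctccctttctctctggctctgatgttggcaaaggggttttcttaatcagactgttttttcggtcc
Prrx2: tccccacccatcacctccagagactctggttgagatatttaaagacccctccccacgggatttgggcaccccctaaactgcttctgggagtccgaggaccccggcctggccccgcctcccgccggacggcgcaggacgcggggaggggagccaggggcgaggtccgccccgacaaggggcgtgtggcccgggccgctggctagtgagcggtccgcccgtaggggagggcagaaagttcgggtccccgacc
Runx1: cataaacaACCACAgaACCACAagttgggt

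Windows of 300 bases, from 250 before to 50 after a transcription start, were found for 8 of the 10 genes, 12 windows in all; Snai2 and Zeb1 had no entry. Motifs were searched on both strands, and the share of all 32851 windows that held them is given beside each. The E-box of SNAIL and ZEB proteins, CAGGTG, was found in 20.2%. Of the E-boxes known for TWIST proteins, CATATG was found in 3.91% and CATCTG in 17.2%. Any E-box, written CANNTG and including the 3 above, was found in 72.3%. The RUNX motif TGTGGT was found in 16.8% and the homeodomain motif TAATTA in 5.29%. Among the 10 genes, CAGGTG was found once in Snai1, at position -126 from the start, and once in the distal Runx1 window, which also held TGTGGT 2 times and 3 matches to CANNTG. The Prrx1 window held TAATTA once, at position -173. The windows of Twist1, Twist2, Tcf21, Zeb2 and Prrx2 and the other Runx1 window held no match to any of the 6 motifs. The GC content of the shown bases was 70% for Snai1 and Prrx2 and 47.6% for Prrx1, against a median of 52.7% over all windows of full length. These matches describe letters in a window and were not tested for binding.

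The 10 genes spanned a wide range of expression. On a scale per length (CPM per kilobase of gene length, as the table gives it), the median level over the 6 libraries was 62.9 for Twist1, 51.7 for Prrx2, 40.6 for Prrx1, 30.4 for Runx1, 27.7 for Zeb1 and 17.7 for Zeb2. Lower levels were found for Snai1 (16.8), Twist2 (14.6), Snai2 (4.80) and Tcf21 (0.360). Twist1 stood at the 93.2 percentile of all tested genes, and Snai2 at the 48.3 percentile. Twist1 was the highest of the 10 in 5 libraries, and Prrx2 in negative library 2. Every pair of neighbours in this order had overlapping ranges over the libraries, except that Snai2 (2.51 to 10.7 CPM per kilobase) stayed above Tcf21 (0 to 1.08). Twist2 and Snai2 overlapped only in that the lowest Twist2 level (10.6) lay just under the highest Snai2 level (10.7). Snai1 had the widest range of ranks, from 5th to 9th, and ranked 5th to 7th in CD34 negative and 7th to 9th in CD34 positive CAFs.

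**Figure D1:**
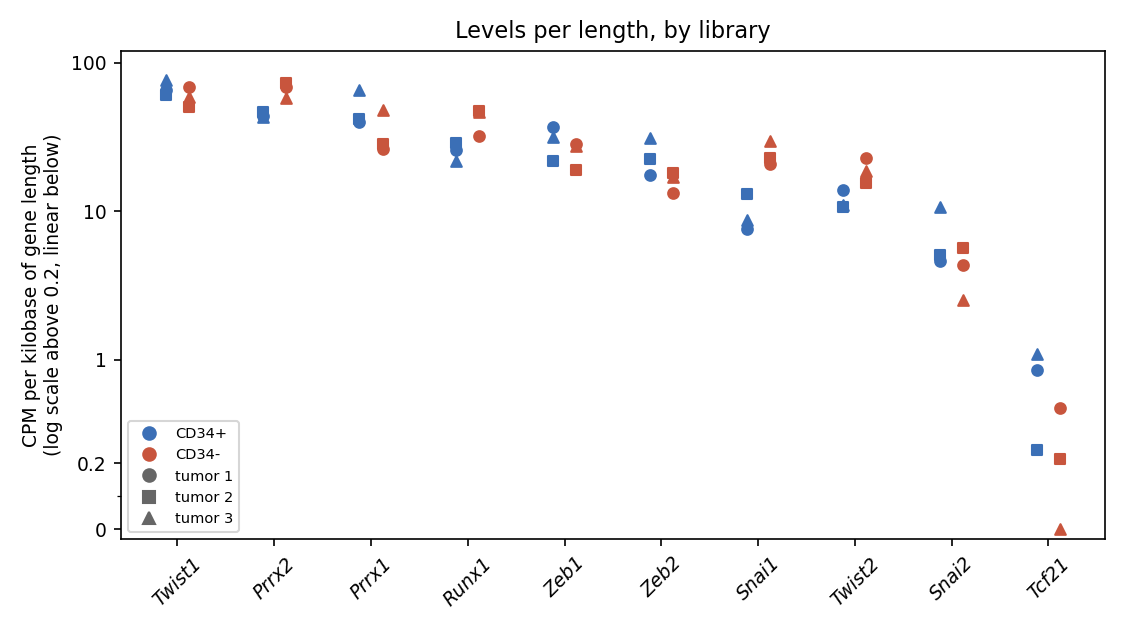
Levels of the 10 genes per length in each library, in CPM per kilobase of gene length on an axis that is logarithmic above 0.2 and linear below; blue points are CD34 positive and red points CD34 negative CAFs, and the symbol gives the tumor. Median levels ran from 62.9 for Twist1 to 0.360 for Tcf21, and Tcf21 was at 0 in negative library 3.

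Snai1, Runx1, Prrx2 and Twist2 were higher in CD34 negative CAFs in each of the 3 tumors, whereas Prrx1, Zeb1, Zeb2 and Tcf21 were lower in each. Twist1 and Snai2 differed in sign between tumors. The same sign in 3 of 3 tumors was thus seen for 8 of the 10 genes, against 46.3% of all genes tested. Tcf21 among them was near the limit of detection, with a log2 difference of -0.16 in tumor 2 and a count of 0 in negative library 3. With limma-voom and no term for the tumor, 0 of the 10 genes passed an adjusted p of 0.05, against 0.121% of all genes (0.0202% higher and 0.101% lower in CD34 negative CAFs). Of the 10, 4 had an unadjusted p under 0.05 (Snai1, Runx1, Prrx2 and Twist2), against 14.3% of all genes. With the tumor as a block, since both fractions were sorted from the same tumor, 3 of the 10 rose (Snai1, Runx1 and Prrx2), against 4.32% of all genes, and 1 fell (Prrx1), against 4.25%, with 8.57% called in either direction. CPM values of the groups did not overlap for 4 of the 10, all higher in CD34 negative CAFs, against 10.4% of all genes; 0 of the 10 were lower without overlap, against 10.0%, and 20.4% of all genes did not overlap in either direction. The median log2 fold change of the 10 was -0.25, against -0.03 over all genes tested, and no direction common to the 10 was seen. In bulk libraries, fewer cells that express a gene and less of its RNA per cell cannot be told apart.

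Other tools differed in how many of the 10 they called. Without a block, edgeR's quasi-likelihood test called 0 and DESeq2 called 2 (Snai1 and Runx1), the latter against 4.7% of all genes. With the block, edgeR called Snai1 alone, against 3.87% of all genes, and DESeq2 called 6, against 11.7%. Those 6 were Snai1, Runx1, Prrx2, Prrx1, Twist2 and Zeb2. Snai1 was thus the gene of the 10 that passed in every fit with the tumor as a block.

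**Figure D2:**
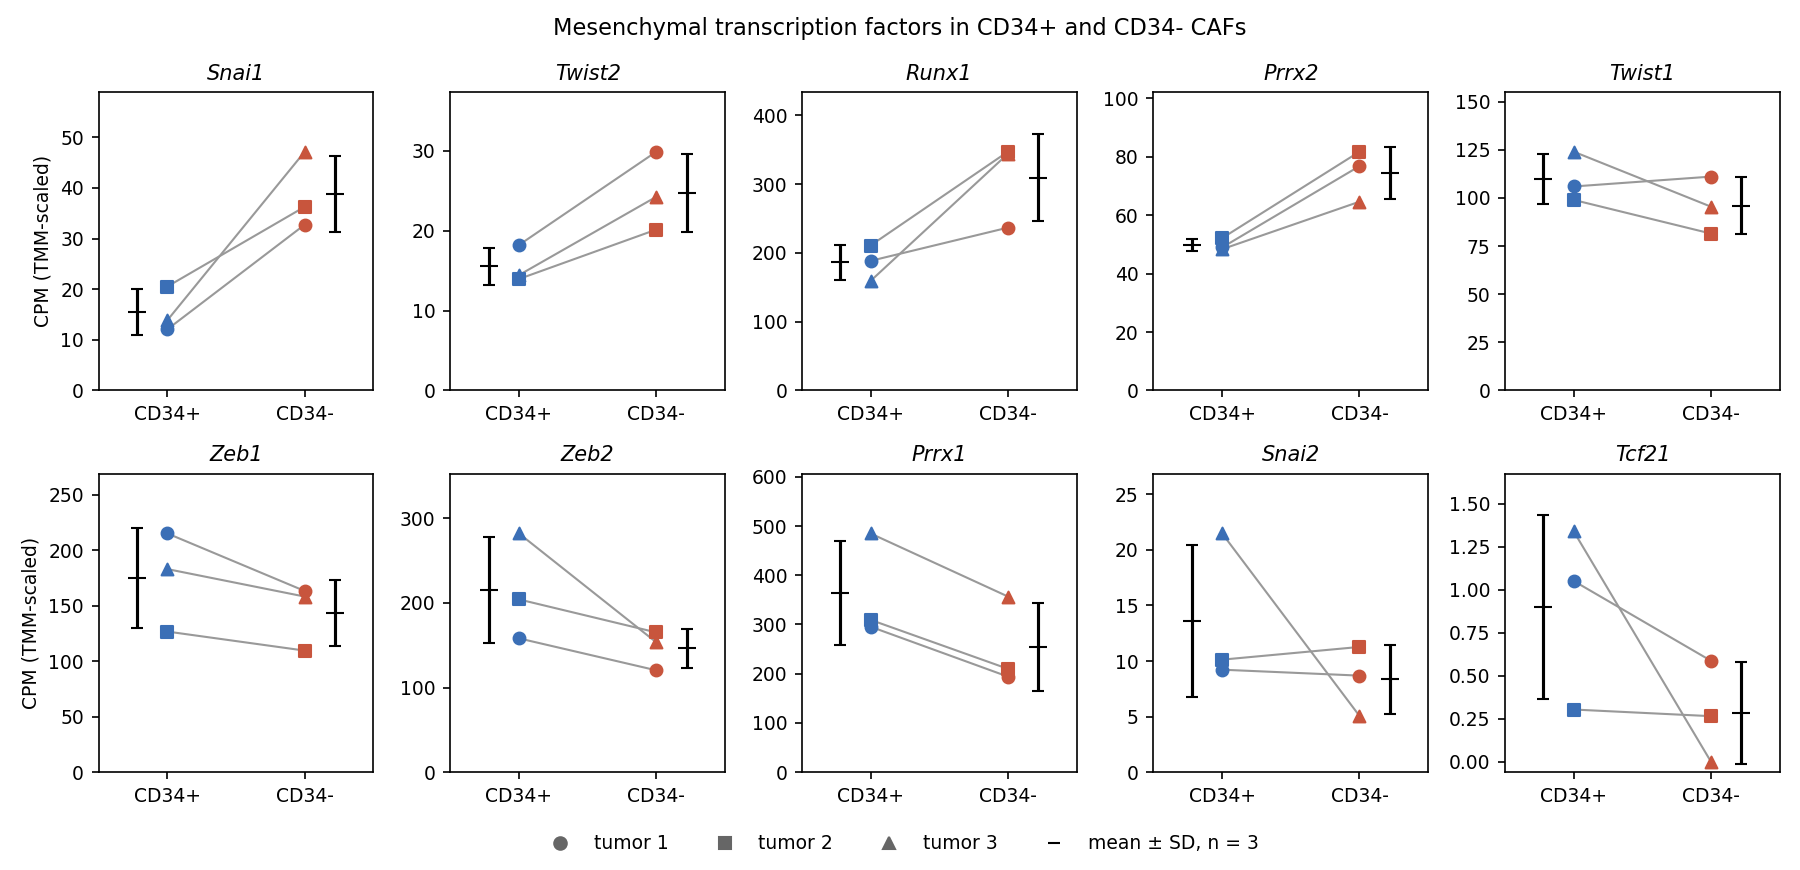
CPM of the 10 genes (TMM-scaled, linear axes from 0, with a small margin under 0 for Tcf21), with lines joining the CD34 positive and CD34 negative library of a tumor and bars giving the mean ± SD of 3 libraries. In the panels of Snai1, Twist2, Runx1 and Prrx2, every CD34 negative library lies above every CD34 positive one.

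SNAIL factors are zinc-finger repressors, and Snai1 (gene 20613, chr2:167538195-167542814) and Snai2, also known as Slug, are both expressed in mesenchyme. Snai1, with the E-box shown upstream of its start, was at 32.8, 36.3 and 47.2 CPM in negative libraries 1, 2 and 3 and at 12.1, 20.5 and 13.9 CPM in positive libraries 1, 2 and 3. The groups did not overlap, the lowest CD34 negative library being above the highest CD34 positive one. Means were 38.7 ± 7.51 and 15.5 ± 4.46 CPM (SD, n = 3), a ratio of 2.50. Its log2 fold change was 1.17 ± 0.26 (SE; limma-voom adjusted p = 0.107) without the block and 1.20 ± 0.23 (adjusted p = 0.0124) with it, and the differences within tumors were 1.44, 0.82 and 1.77 on the log2 scale. With the block and without any 1 tumor, the adjusted p lay between 0.000956 and 0.00818. Such fits, here and for the genes below, hold fewer libraries and lean more on a variance pooled over genes. A smaller adjusted p in them does not make a call firmer. Leaving out libraries or tumors without a block gave fold changes from 0.96 to 1.55.

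Snai2 (gene 20583, chr16:14705852-14709395) showed another pattern. It was at 8.69, 11.3 and 5.06 CPM in negative libraries 1, 2 and 3 and at 9.22, 10.1 and 21.5 CPM in positive libraries 1, 2 and 3. The groups overlapped, and the lowest and the highest value both came from tumor 3. Its log2 fold change of -0.58 ± 0.40 (SE; limma-voom adjusted p = 0.550) did not exceed the spread between libraries. Without both libraries of tumor 3 it was -0.02, and 0.066 with the tumor as a block as well.

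TWIST factors are bHLH proteins, and Twist2 (Dermo1) is known from dermal and skeletal mesenchyme. Twist2 (gene 13345, chr1:91801461-91848034) was at 29.9, 20.1 and 24.2 CPM in negative libraries 1, 2 and 3 and at 18.2, 13.9 and 14.4 CPM in positive libraries 1, 2 and 3. The groups did not overlap, although negative library 2 stood only just above positive library 1. Means were 24.7 ± 4.89 and 15.5 ± 2.33 CPM (SD, n = 3). In limma-voom its log2 fold change was 0.74 ± 0.24 (SE; limma-voom adjusted p = 0.219), or 0.64 ± 0.19 (adjusted p = 0.0766) with the tumor as a block, and differences within tumors were 0.71, 0.53 and 0.75. Twist2 therefore did not pass the test in either limma-voom fit.

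Twist1 (gene 22160, chr12:33957671-33959831), which is needed for cranial mesenchyme, was at 111, 81.5 and 95.5 CPM in negative libraries 1, 2 and 3 and at 106, 99.0 and 124 CPM in positive libraries 1, 2 and 3. The groups overlapped, tumor 1 being slightly higher in the CD34 negative fraction and tumors 2 and 3 lower. Its log2 fold change was -0.20 ± 0.18 (SE; limma-voom adjusted p = 0.653), and the differences within tumors were 0.07, -0.28 and -0.38.

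Tcf21 (gene 21412, chr10:22817263-22820143), the third bHLH gene, was close to the limit of detection. It had 33, 12 and 0 counts in negative libraries 1, 2 and 3 and 17, 26 and 38 counts in positive libraries 1, 2 and 3. These correspond to 0.588, 0.266 and 0 CPM and to 1.05, 0.304 and 1.34 CPM. The groups overlapped, and the count of 0 in negative library 3 allows a level of up to 0.0825 CPM (3 counts). The log2 fold change was -1.79 ± 1.57 (SE; limma-voom adjusted p = 0.643), and without both libraries of tumor 3 it was -0.04. The differences within tumors were -0.86, -0.16 and -6.63, the last resting on the count of 0. Tcf21 did not pass the test.

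PRRX genes encode paired-related homeodomain proteins of limb and craniofacial mesenchyme, and the pair moved in opposite directions. Prrx1 (gene 18933, chr1:163245119-163315145) was at 194, 210 and 357 CPM in negative libraries 1, 2 and 3 and at 296, 309 and 485 CPM in positive libraries 1, 2 and 3. The groups overlapped because both libraries of tumor 3 were high, yet within each tumor the CD34 negative library was lower, by log2 differences of -0.61, -0.56 and -0.44. The log2 fold change was -0.53 ± 0.29 (SE; limma-voom adjusted p = 0.450) without and -0.54 ± 0.12 (adjusted p = 0.0257) with the tumor as a block. With the block it was called without tumor 3 (adjusted p = 0.0123), but not without tumor 1 (0.0744) or tumor 2 (0.206), and not with the tumor as a random effect (0.162).

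Prrx2 (gene 20204, chr2:30845064-30881251) was at 76.8, 81.8 and 64.6 CPM in negative libraries 1, 2 and 3 and at 49.0, 52.2 and 48.4 CPM in positive libraries 1, 2 and 3. The groups did not overlap, and the CD34 positive libraries lay close together. Means were 74.4 ± 8.82 and 49.8 ± 2.04 CPM (SD, n = 3). In limma-voom the fold change on the log2 scale was 0.57 ± 0.17 (SE; adjusted p = 0.188) without and 0.58 ± 0.14 (adjusted p = 0.0351) with the block, and differences within tumors were 0.65, 0.65 and 0.42. As for Prrx1, the call with the block held without tumor 3 (adjusted p = 0.0139) and not without tumor 1 (0.0919) or tumor 2 (0.352).

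ZEB factors are zinc-finger homeodomain repressors that restrain the microRNA-200 family and are restrained by it. Zeb2 (gene 24136, chr2:44983512-45117442) was at 120, 165 and 153 CPM in negative libraries 1, 2 and 3 and at 158, 204 and 282 CPM in positive libraries 1, 2 and 3. The groups overlapped, and within each tumor the CD34 negative library was lower. The log2 fold change was -0.52 ± 0.24 (SE; limma-voom adjusted p = 0.378), or -0.53 ± 0.15 (adjusted p = 0.0572) with the block. Zeb2os, which overlaps Zeb2, had 560 counts over the 6 libraries against 47790 for Zeb2, and whether the counting used strand was not stated.

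Zeb1 (gene 21417) was at 163, 110 and 158 CPM in negative libraries 1, 2 and 3 and at 215, 127 and 183 CPM in positive libraries 1, 2 and 3. The groups overlapped, with tumor 2 lowest in both fractions. Its log2 fold change was -0.29 ± 0.25 (SE; limma-voom adjusted p = 0.627), and the differences within tumors were -0.40, -0.21 and -0.21.

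Runx1 (gene 12394, chr16:92601466-92826074), known for its part in the formation of blood stem cells and also expressed in mesenchyme, was at 237, 347 and 344 CPM in negative libraries 1, 2 and 3. In positive libraries 1, 2 and 3 it was at 188, 211 and 159 CPM. The groups did not overlap, and the smallest difference was in tumor 1. Means were 309 ± 62.9 and 186 ± 25.9 CPM (SD, n = 3), a ratio of 1.66. The log2 fold change was 0.74 ± 0.21 (SE; limma-voom adjusted p = 0.177) without and 0.73 ± 0.16 (adjusted p = 0.0227) with the tumor as a block, and differences within tumors were 0.33, 0.72 and 1.11. With the block, it was called without any 1 tumor, at limma-voom adjusted p-values from 0.000992 to 0.0407, with the limit given for Snai1.

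**Figure D3:**
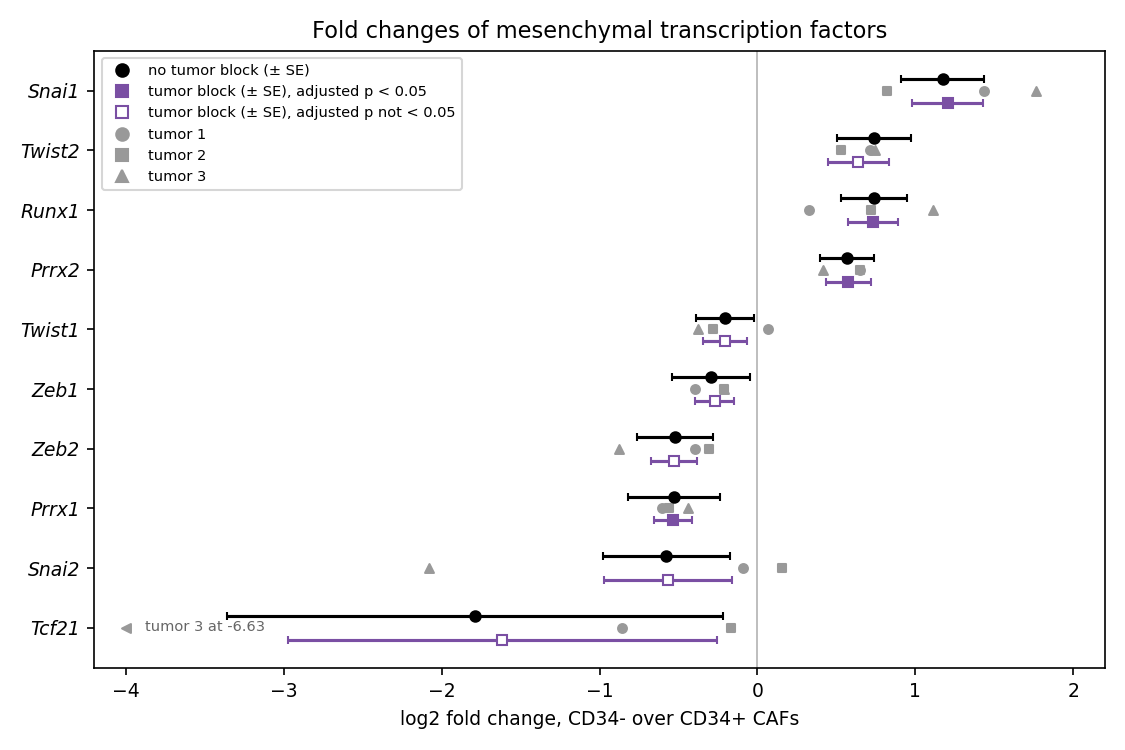
Log2 fold changes of the 10 genes, CD34 negative over CD34 positive CAFs, from limma-voom without (black) and with (purple, filled where the adjusted p is under 0.05) the tumor as a block, with bars of 1 SE and grey symbols for the difference within each tumor. Filled squares mark Snai1, Runx1, Prrx2 and Prrx1, and tumor 3 of Tcf21, at -6.63, lies outside the axis and is drawn as an arrow.

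Within the families of paralogs, the ratio as written below was lower in the CD34 negative library of each tumor for 3 of the 4 pairs. Shares of single genes are given above, and how often gene pairs at large behave this way was not counted. Each of the 3 pairs holds a gene already described as higher without overlap (Twist2, Prrx2 or Snai1). Their ratios are therefore no separate result. A ratio within a library does not depend on its total, and counts were taken per length. The Twist1/Twist2 ratio was 2.99, 3.26 and 3.17 in negative libraries 1, 2 and 3 and 4.68, 5.71 and 6.91 in positive libraries 1, 2 and 3. On the log2 scale its means were 1.65 ± 0.06 and 2.51 ± 0.28 (SD, n = 3), a difference of -0.86. The groups did not overlap, and Twist1 was the higher gene of the pair in every library.

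The Prrx1/Prrx2 ratio was 0.383, 0.389 and 0.837 in negative libraries 1, 2 and 3 and 0.915, 0.899 and 1.52 in positive libraries 1, 2 and 3. Prrx2 was thus the higher gene per length in all libraries but positive library 3, and the groups did not overlap. The log2 difference between the group means was -1.11, with -1.26, -1.21 and -0.86 within tumors.

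The Snai2/Snai1 ratio was 0.209, 0.245 and 0.0849 in negative libraries 1, 2 and 3 and 0.603, 0.389 and 1.22 in positive libraries 1, 2 and 3. The groups did not overlap, and Snai2 exceeded Snai1 per length in positive library 3 alone. The log2 difference was -2.01, with -1.53, -0.67 and -3.85 within tumors, and it was -1.10 without tumor 3.

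The Zeb1/Zeb2 ratio was 2.13, 1.04 and 1.62 in negative libraries 1, 2 and 3 and 2.14, 0.974 and 1.02 in positive libraries 1, 2 and 3, and here the groups overlapped, with a log2 difference of 0.25. A two-sided exact permutation test of 3 against 3 libraries cannot go below 0.1, which it reached for the first 3 pairs (0.133 adjusted over the 4 pairs), and it gave 0.6 for Zeb1/Zeb2. That test leaves out which libraries share a tumor. An exact permutation test of the 3 differences within tumors, chosen after seeing the data, cannot go below 0.25, which it reached for the same 3 pairs, whose differences had 1 sign in 3 of 3 tumors, and it gave 0.5 for Zeb1/Zeb2. Neither exact test can reach a threshold of 0.05 with these libraries.

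**Figure D4:**
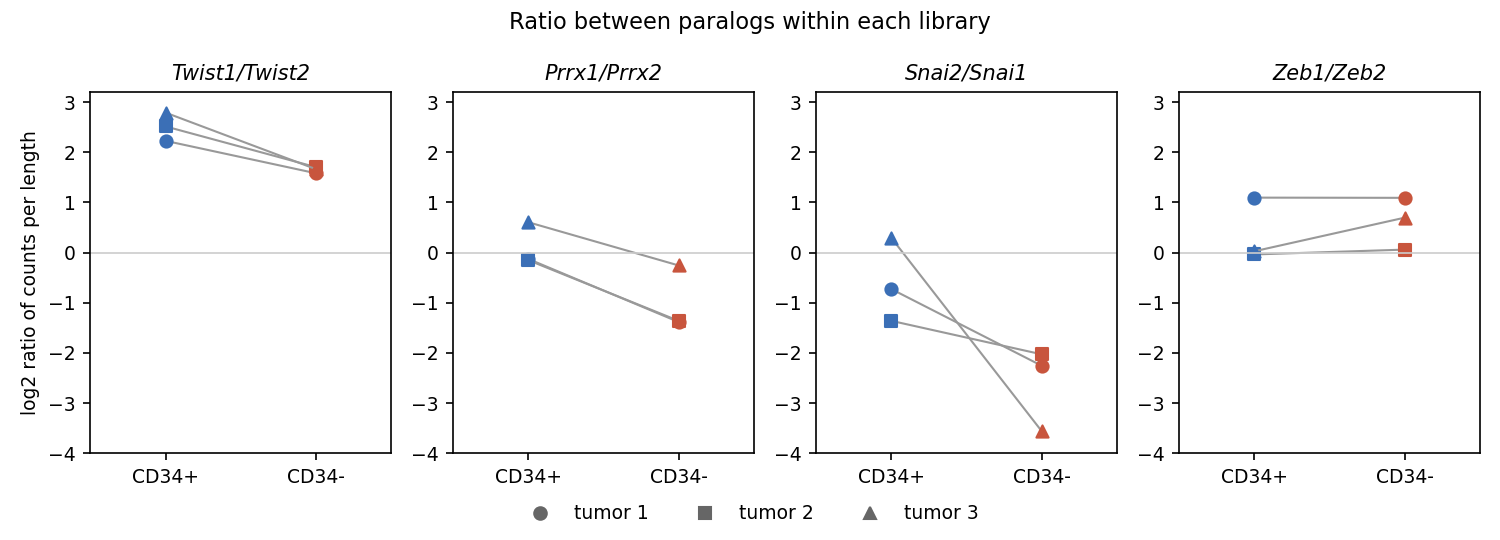
Log2 ratio of counts per length between the genes of 4 paralog pairs in each library, with lines joining the libraries of a tumor. All 3 lines fall from CD34 positive to CD34 negative CAFs for Twist1/Twist2, Prrx1/Prrx2 and Snai2/Snai1, with mean differences of -0.86, -1.11 and -2.01, and the Zeb1/Zeb2 lines do not share a direction.

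Genes that work with these factors were looked at from lists written from general knowledge. Of 7 dimerization partners and inhibitors of bHLH factors, Id1 and Id3 rose with the tumor as a block, against 4.32% of all genes. Without it 0 passed, and 2 had an unadjusted p under 0.05, against 14.3% of all genes. When the tumor was a random effect, with an estimated correlation, limma-voom called 0 of the 7 (adjusted p = 0.0624 for Id1 and 0.0821 for Id3). ID proteins bind E proteins and keep them from DNA. The mean CPM of Id1 was 67.4 ± 30.2 in CD34 negative CAFs, against 31.4 ± 1.13 in CD34 positive CAFs (SD over 3 libraries, as for all pairs of values that follow in this order), and it rose by 1.09 ± 0.21 on the log2 scale (SE; limma-voom adjusted p = 0.0131) with the block. Id3 was at 407 ± 163 and 232 ± 78.3 CPM, and with the block it rose by 0.79 ± 0.12 (limma-voom adjusted p = 0.00520). The median of the 7 was 0.51 without and 0.25 with the block, against -0.03 and -0.01 over all genes.

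Of 9 SNAIL and ZEB corepressors, 0 passed in either limma-voom fit, and 0 with edgeR or DESeq2, with or without the block. At an unadjusted p under 0.05 there was 1 without the block and 2 with it, against 2128 and 3460 of all 14855 genes tested. The median log2 fold change of the 9 corepressors was 0.03. The most abundant were Ctbp1, a corepressor that ZEB proteins recruit, at 141 ± 5.38 and 105 ± 14.6 CPM, and Hdac2, a histone deacetylase, at 71.9 ± 9.21 and 93.9 ± 11.8 CPM. Neither gene overlapped between the groups, Ctbp1 being higher and Hdac2 lower in CD34 negative CAFs, with log2 fold changes of 0.43 ± 0.17 and -0.39 ± 0.18 (SE; limma-voom adjusted p = 0.302 and 0.367). Among the 9 corepressors, 2 were higher and 2 lower without overlap, against 10.4% and 10.0% of all genes. Of the 9 genes of the RUNX family and its cofactors, 0 passed in the same fits, with 0 at an unadjusted p under 0.05 without the block and 1 with it, and a median of 0.22. Cbfb, whose product does not bind DNA itself and strengthens the binding of RUNX proteins, was at 126 ± 8.22 and 107 ± 14.4 CPM, and its log2 fold change was 0.24 ± 0.17 (SE). The corepressor gene Tle3 was at 69.1 ± 15.2 and 59.0 ± 3.41 CPM. Among the RUNX genes, Runx2, the osteoblast factor, had a log2 fold change of 0.17 ± 0.24 (limma-voom adjusted p = 0.786) and was named after its values were seen.

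Of 36 other fibroblast and mesenchymal transcription factors, 32 were tested, and Foxd1, Lhx9, Hand2 and Snai3 did not pass the filter. With the tumor as a block, 2 rose, against 4.32% of all genes, and 4 fell, against 4.25%. Without it 0 passed, and 9 had an unadjusted p under 0.05, against 14.3% of all genes. The median log2 fold change was -0.10 without and -0.06 with the block. Foxs1, a forkhead factor known from perivascular cells, was at 17.8 ± 3.82 and 5.60 ± 2.97 CPM, and with the block it rose by 1.70 ± 0.29 (SE; limma-voom adjusted p = 0.00817). The 4 factors that fell were Ebf2, Nfib, Ebf3 and Osr2. Ebf2, a marker of adipocyte precursors, was at 21.8 ± 6.47 and 70.5 ± 13.2 CPM (-1.67 ± 0.24, limma-voom adjusted p = 0.00412), and its relative Ebf3 at 14.4 ± 4.01 and 31.0 ± 5.71 CPM (-1.11 ± 0.20, adjusted p = 0.0100). Nfib, a nuclear factor I gene, was at 57.6 ± 16.7 and 133 ± 55.1 CPM (-1.17 ± 0.14, limma-voom adjusted p = 0.00154). Osr2, an odd-skipped factor of limb and palate mesenchyme, was at 47.5 ± 18.6 and 75.7 ± 21.8 CPM (-0.72 ± 0.15, limma-voom adjusted p = 0.0179). With the tumor as a random effect, Foxs1, Ebf2, Ebf3 and Nfib were still called, whereas Osr2 was not (limma-voom adjusted p = 0.132).

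**Figure D5:**
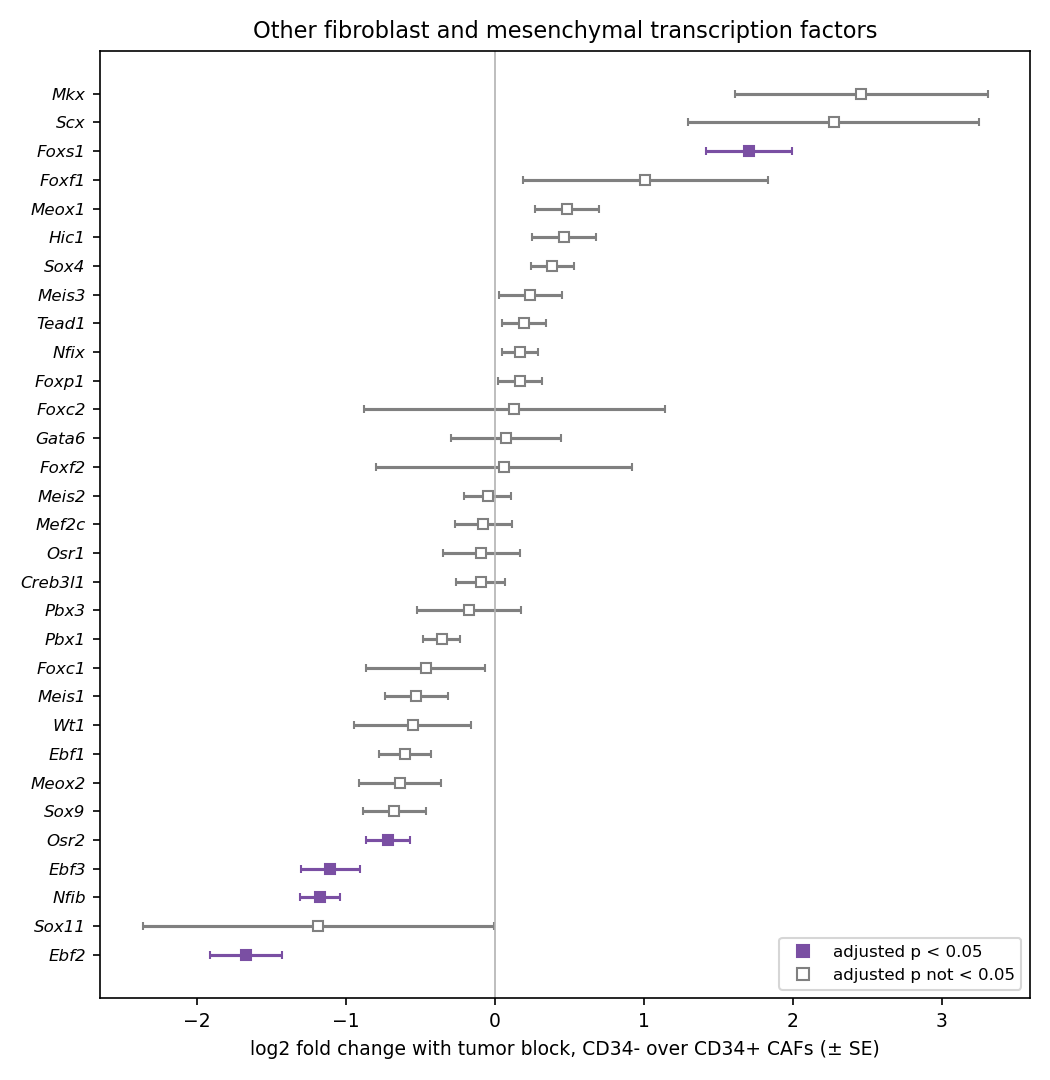
Log2 fold changes of other fibroblast and mesenchymal transcription factors tested (all but 1 of the 32), CD34 negative over CD34 positive CAFs, from limma-voom with the tumor as a block; bars are 1 SE and filled squares have an adjusted p under 0.05. Filled squares are Foxs1 on the higher side and Osr2, Ebf3, Nfib and Ebf2 on the lower side.

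Of 16 epithelial genes that SNAIL and ZEB proteins are known to repress, 15 were tested and 0 passed with limma-voom or edgeR, with or without the block. At an unadjusted p under 0.05 there were 0 without and 3 with the block, against 2128 and 3460 of all 14855 genes tested. DESeq2 called 0 without the block and 2 with it. The median log2 fold change of the 15 was 0.88 without and 0.51 with the block. The most abundant were the keratin genes Krt8, at 36.6 ± 26.5 and 24.3 ± 20.3 CPM, and Krt18, at 25.1 ± 8.68 and 16.2 ± 12.6 CPM. The 10 epithelial markers, which share 4 genes with this list, summed to 48.5 to 154 CPM in negative libraries and to 15.0 to 135 CPM in positive libraries, with Wap and Csn2 at 0 in at least 1 library, and their part in these values was not tested.

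Of 12 mesenchymal effector genes, 1 rose with the tumor as a block, against 4.32% of all genes, and 2 fell, against 4.25%. Without it 0 passed, and 3 had an unadjusted p under 0.05, against 14.3% of all genes. The median log2 fold change was -0.05. Cdh11, a cadherin of mesenchymal cells, was at 1004 ± 143 and 582 ± 176 CPM (0.82 ± 0.18 with the block, limma-voom adjusted p = 0.0243). S100a4, or fibroblast-specific protein, was at 21.0 ± 8.24 and 123 ± 66.3 CPM (-2.50 ± 0.21, limma-voom adjusted p = 0.000333). Fn1, which encodes fibronectin, was at 8771 ± 1472 and 15979 ± 5875 CPM (-0.80 ± 0.17, limma-voom adjusted p = 0.0182). With the tumor as a random effect, S100a4 was called and Cdh11 and Fn1 were not (limma-voom adjusted p = 0.0663 and 0.0929).

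Markers of fibroblasts and of other cells and states moved with the fractions in the same libraries. The calls that follow are from limma-voom with the tumor as a block, where 4.32% of all genes rose and 4.25% fell. Without the block, 0 of these markers passed. Of the 10 fibroblast markers, 1 rose with the block (Pdgfrb, limma-voom adjusted p = 0.00714). Another 3 fell with it, Dcn, Lum and Fap (limma-voom adjusted p = 0.00154, 0.0140 and 0.0126). With the block, 4 of 8 pericyte and smooth muscle markers rose (Notch3, Mcam, Cspg4 and Des) and 2 fell (Kcnj8 and Abcc9), and the 8 summed to 221 to 248 CPM in negative libraries and to 89.0 to 196 CPM in positive libraries, with none at 0. Of 6 cycling markers, 4 fell with the block, the sums being 13.5 to 62.5 and 42.5 to 285 CPM, with Cdk1 and Aurkb at 0 in at least 1 library. Of the endothelial markers, 1 of 6 tested fell with the block, Tek, with mean levels of 8.46 CPM in negative and 76.7 CPM in positive libraries. With the tumor as a random effect, Pdgfrb, Dcn, Fap, Notch3, Mcam, Cspg4 and Tek were still called. Lum, Des, Kcnj8, Abcc9 and the cycling markers were not (limma-voom adjusted p from 0.0642 for Mki67 to 0.280 for Ccnb1). The part of these markers in the differences of Snai1, Runx1, Prrx1, Prrx2 and the other factors was not tested.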

How the data were processed

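GFP+ CAFs were sorted by CD34, RNA was extracted with miRNeasy micro kits, and TruSeq RNA v2 libraries were sequenced on a NextSeq 500, per the study's methods. The authors aligned reads to GRCm38 (mm10) and counted them per gene with Rsubread (featureCounts, per the submitters' processing notes). The deposited values are raw counts per NCBI gene. The strand setting and the handling of reads with several matches are not given in the sources used here. Sums of raw counts per library ranged from 16238100 to 86609300.

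Genes were filtered with filterByExpr (minimum count 10), scaled by TMM (factors 0.941 to 1.04) and compared with limma-voom, two-sided, with Benjamini-Hochberg adjustment over all 14855 genes (edgeR 4.0.16, limma 3.58.1, DESeq2 1.42.0, R 4.3.3). The study's methods name voom and limma and state no term for the tumor, so the main design has none. Both libraries of a number came from 1 tumor, and deviations from the group means correlated within tumors (0.373, 0.350 and 0.219 across genes), so the tumor was also fitted as a block. Paralog ratios used a pseudocount of 0.5 and an exact permutation test (scipy 1.17.1). CPM values are TMM-scaled. Tests were tried on simulated data. The 10 genes and all lists were chosen with earlier results of these data known. Named genes are the 10, in each other list up to 4 called genes a direction by size of fold change in either limma-voom fit, and the 2 most abundant where none was called. Alternatives covered normalization, filter, annotation, test, weights, block, each library and each tumor. A comparison of the proteins was not made. The values of 1 called gene of the lists, which the counts and medians include, and those of glial markers are not reported here.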

Additional observations from a re-analysis of the deposited data

How the results depend on the processing

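Without a term for the tumor, the number of the 10 genes called stayed at 0 with other size factors, without the low-count filter, with official symbols only, with edgeR, limma-trend or sample weights, and without any library or tumor, and it was 2 with DESeq2. With the replicate block it was 4, and 3 when the tumor was a random effect, 1 with edgeR and 6 with DESeq2. Over all genes, 18 were called without the block, 9 with edgeR, 161 with sample weights, 698 with DESeq2 and 0 to 86 when libraries or tumors were left out. With the block, 1273 were called, 703 as a random effect, 575 with edgeR and 1733 with DESeq2, and 851, 1134 and 2019 when a tumor was left out.

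The calls of single lists moved likewise. Partners and inhibitors of bHLH factors gave 2 calls with the block, 1 with edgeR and the block, 1 with DESeq2, 3 with DESeq2 and the block, and 0 when the tumor was a random effect. The other transcription factors gave 6, 4, 4 and 8 in that order, 4 with the random effect and 1 with sample weights. Mesenchymal effectors gave 3, 1, 1 and 3, and 1 with the random effect. Epithelial genes gave 2 calls with DESeq2 and the block. With the block and 1 tumor left out, calls ranged from 2 to 4 among the 10 genes, from 2 to 3 among bHLH partners, from 4 to 12 among other factors, from 2 to 5 among effectors, from 0 to 1 among corepressors and from 0 to 2 among epithelial genes; the same, without the block, gave 0 to 1 among effectors.

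The median log2 fold change of the 10 was -0.24 with the block and between -0.39 and -0.030 when libraries or tumors were left out, the value nearest 0 being that without tumor 3, which with the block was -0.031. Of the 10 genes, only Snai2 changed sign in any of the alternatives run, to 0.066 with the block and without tumor 3. The cause of these differences was not tested. The 3 libraries per group limit the precision of each fold change.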
